A study of Mus musculus with 6 samples.

Results

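The NRF2 antioxidant response was followed through 10 genes chosen by symbol: Nfe2l2, Keap1, Nqo1, Hmox1, Gclc, Gclm, Gsr, Txnrd1, Srxn1 and Gpx1. All 10 were found among the 21361 genes of the expression table and among the 18418 genes with a count. The samples were 6 livers of Mettl14f/f mice, in which both Mettl14 alleles are floxed. The mice were males on a high-fat diet (HFD). HFD began at 8 weeks of age, a vector was injected after 10 weeks of HFD, and livers were collected 8 weeks later. The vector was AAV8-TBG-Cre in 3 mice, labelled METTL14 KO, and AAV8-TBG-GFP in 3 mice, labelled WT although they carry the same floxed alleles. AAV8-TBG is an adeno-associated virus whose TBG promoter is active in hepatocytes, so other liver cells keep Mettl14, and controls differ from knockouts by the protein the vector encodes. The comparison asked which transcripts changed in METTL14-deficient livers.

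NRF2, encoded by Nfe2l2, is a transcription factor that is held in the cytoplasm and sent to degradation by KEAP1, the sensor of electrophiles and oxidants. When KEAP1 is modified, NRF2 enters the nucleus, pairs with a small MAF protein and binds antioxidant response elements near genes of glutathione synthesis, the thioredoxin system, NADPH supply and detoxification. In liver this response protects hepatocytes against drugs, bile acids and lipid-derived oxidants.

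The core of an antioxidant response element was searched as TGACNNNGC and TGAGNNNGC on both strands of the RefSeq promoters of build GRCm38.p6, which run from 250 bases before to 50 bases after each start. Both motifs can overlap an AP-1 site. Promoters were matched for 7 of the 10 genes, and a match stood in 4 of their 9 promoters (44.4%) against 27.8% of all 32851 promoters. Hmox1, Gclc and Gsr had no entry. The windows of members are shown because this element is what NRF2 binds, and that of Me1 because it was the pathway gene with the clearest difference between groups. Each is printed in the direction of its gene, with the 9 matched bases in capitals.
Srxn1, chr2:152105469-152105497, + strand: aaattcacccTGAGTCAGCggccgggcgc
Srxn1, chr2:152105356-152105384, + strand: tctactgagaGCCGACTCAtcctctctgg
Gclm, chr3:122245413-122245441, + strand: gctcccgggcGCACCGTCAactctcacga
Txnrd1, chr10:82859104-82859132, + strand: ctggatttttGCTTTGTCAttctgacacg
Nfe2l2, chr2:75704885-75704913, - strand: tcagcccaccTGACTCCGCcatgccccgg
Me1, chr9:86695902-86695930, - strand: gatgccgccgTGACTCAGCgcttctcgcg
The 2 windows of Srxn1 lie 45 and 158 bases before its start, and another match lies 28 bases after it. The promoters of Keap1, Nqo1 and Gpx1 and 2 of the 3 promoters of Txnrd1 had no match in these windows. A match is a string of letters and carries no measurement of NRF2 binding.

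Libraries held 20356392 to 21010474 counts each, and 13430 genes had enough counts to be tested. Levels below are CPM, counts divided by library size after TMM scaling, and the factors of that scaling ran from 0.913 in AAV8-TBG-GFP replicate 3 to 1.18 in AAV8-TBG-Cre replicate 2. Mettl14 averaged 6.18 ± 0.326 CPM (SD, n = 3) in AAV8-TBG-GFP livers and 5.07 ± 0.275 CPM (SD, n = 3) in AAV8-TBG-Cre livers, a difference of -0.29 on the log2 scale that missed the threshold (edgeR, adjusted p = 0.336). Mettl14 was 5.81 to 6.43 CPM in AAV8-TBG-GFP livers and 4.96, 5.38 and 4.86 CPM in AAV8-TBG-Cre replicates 1, 2 and 3. In FPKM, which lacks the TMM factor, these groups overlapped, at 2.01 to 2.31 and at 1.92, 2.40 and 1.82. The counts cover whole transcripts and do not show the floxed exon, so groups are named by their labels. Of 8 hepatocyte markers none was at 0 in a library, and Alb was the most abundant. At the study's threshold 1 of the 8 was higher with AAV8-TBG-Cre (Cps1) and 1 lower (Ttr). The background for this and the next marker counts was 12.0% higher and 8.41% lower of all genes tested. Of 12 macrophage and Kupffer cell markers 9 passed the study's threshold as higher with AAV8-TBG-Cre, as did all 8 tested cholangiocyte markers and 4 of 9 stellate cell markers. None of 8 endothelial markers did so as higher (1 as lower), and none of 5 tested erythroid markers in either direction, while 2 of 4 tested neutrophil markers did as higher and 1 as lower. The most abundant gene of these lists was Lyz2, Spp1, Dcn, Eng, Hba-a1 and Cxcr2, respectively.

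Of the 10 NRF2 genes, 8 did not pass the test in AAV8-TBG-Cre livers and the other 2 differed in opposite directions. Hmox1, the stress-induced haem oxygenase, was higher by 1.22 on the log2 scale, and Gpx1, the main cytosolic glutathione peroxidase, was lower by a log2 difference of -0.40, both past the study's threshold, an unadjusted p under 0.05 with a 1.2-fold difference or more. The 8 that did not pass included Nfe2l2 itself and its classical target Nqo1. All 10 passed the filter on low counts. So 1 of 10 was called higher (12.0% of all genes tested) and 1 of 10 lower (8.41% of all genes), together 2 of 10 against 20.5%, a share near the background. With Benjamini-Hochberg adjustment in edgeR 0 of the 10 passed, against 0.931% of all genes (0.484% higher, 0.447% lower), and 2 of the 10 had an unadjusted p under 0.05. At the adjusted threshold DESeq2 gave 2 of the 10, beside 748 higher and 409 lower of the 18415 genes it tested, and limma on FPKM values gave 0. The median log2 fold change of the 10 was 0.0070, and that of all genes tested was -0.0064.

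**Figure D1:**
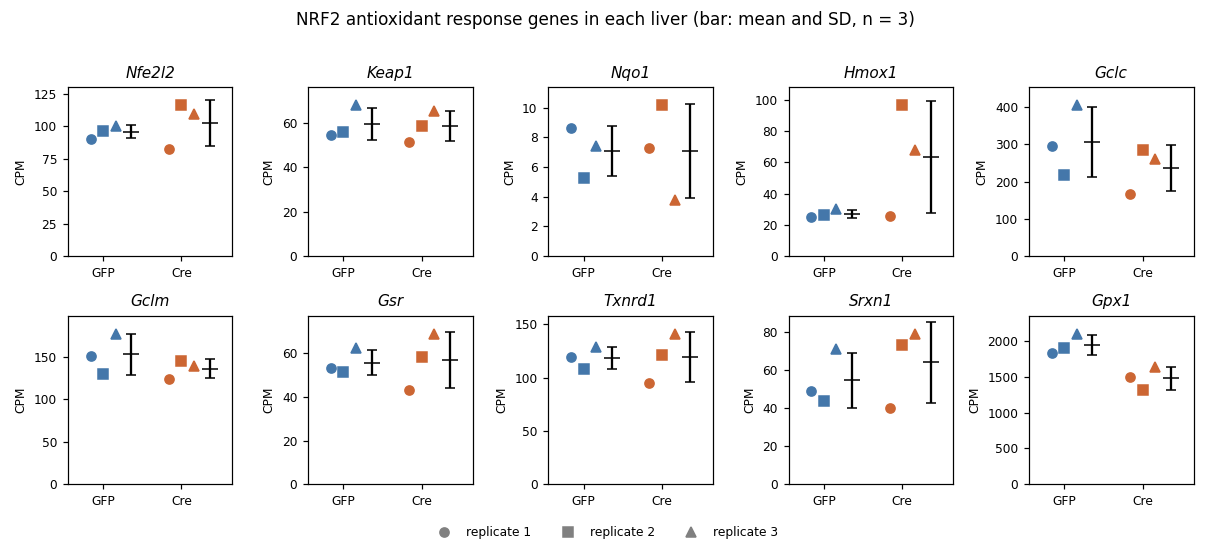
CPM of each NRF2 antioxidant response gene in each liver, by vector, with the replicate as the marker shape and the mean and SD (n = 3 mice) as a bar. Gpx1 separates the groups, and Hmox1 reaches 96.5 and 68.1 CPM in AAV8-TBG-Cre replicates 2 and 3 but 25.5 CPM in replicate 1.

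Nfe2l2 had 90.7, 96.7 and 101 CPM in the control (AAV8-TBG-GFP) livers and 82.4, 116 and 109 CPM in the AAV8-TBG-Cre livers, always given here in the order of the replicate number. The controls lay close together, whereas the AAV8-TBG-Cre livers lay on both sides of them. The means were 96.0 ± 4.94 CPM (SD, n = 3) and 103 ± 18.0 CPM (SD, n = 3), with a log2 fold change of 0.098 (95% interval -0.24 to 0.44, adjusted p = 0.748 from edgeR). The sign of this value changed when AAV8-TBG-Cre replicate 2 was left out (-0.0044). NRF2 activity is set largely at the protein level, which these data do not measure.

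Keap1, the adaptor that presents NRF2 to a CUL3 ubiquitin ligase, was measured at 54.7, 56.0 and 68.1 CPM in the controls and 51.7, 58.9 and 65.4 CPM in the AAV8-TBG-Cre livers. The groups overlapped almost fully. The log2 fold change was -0.023 (95% interval -0.33 to 0.28, adjusted p = 0.943 from edgeR), an interval that leaves room for differences of either sign.

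Hmox1 cleaves haem into biliverdin, carbon monoxide and iron, and is induced by NRF2 once the repressor BACH1 leaves its promoter. The gene lies at chr8:75093618-75100593 (GRCm38.p6). It was measured at 25.1, 26.4 and 29.996 CPM in the controls and 25.5, 96.5 and 68.1 CPM in the AAV8-TBG-Cre livers. Replicate 1 of the latter lay within the control range, and replicates 2 and 3 lay above every control, so the groups overlapped. The means were 27.2 ± 2.54 CPM (SD, n = 3) and 63.3 ± 35.7 CPM (SD, n = 3), a 2.33-fold difference (log2 fold change 1.22, standard error 0.41, adjusted p = 0.156 from edgeR). An exact two-sided permutation test gave p = 0.3, where 0.1 is the smallest p that 3 against 3 allow.

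The size of the Hmox1 difference depended on which AAV8-TBG-Cre livers were included. It was 1.60 on the log2 scale without AAV8-TBG-Cre replicate 1 (adjusted p = 0.0173 from edgeR, range 0.0173 to 0.415 over 16 alternatives) and 0.78 without AAV8-TBG-Cre replicate 2 (adjusted p = 0.415). Without AAV8-TBG-GFP replicate 1 it was 1.16 and its unadjusted p of 0.0560 no longer passed. Library names have 2 or 4 digits, a difference the labels do not explain. Among libraries with 2-digit names (AAV8-TBG-GFP replicates 1 and 2, AAV8-TBG-Cre replicate 1) the log2 ratio of Hmox1 was -0.015, and among those with 4-digit names it was 1.46. With a term for name length in the edgeR fit it was 0.73 (adjusted p = 0.268).

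Macrophages, which recycle haem from red cells, also express Hmox1, and in bulk liver more cells of a type and more RNA per cell cannot be told apart. The 12 macrophage markers summed to between 329 and 380 CPM in the controls and between 528 and 816 CPM in the AAV8-TBG-Cre livers, and none was at 0 in any library. The sum was 546, 816 and 528 CPM in AAV8-TBG-Cre replicates 1, 2 and 3, highest in the liver with the most Hmox1. Of the 12 markers, 5 (Lyz2, Cd68, C1qa, C1qb and C1qc) ranked the AAV8-TBG-Cre livers as Hmox1 did, with replicate 1 lowest and replicate 2 highest, and the other 7 did not. Lyz2, for example, had 82.6, 197 and 90.3 CPM in these livers and 37.7 to 49.7 CPM in the controls, so unlike Hmox1 it exceeded the controls in replicate 1 as well. Erythroid markers summed to 476 to 843 CPM in the controls and 434 to 942 CPM in the AAV8-TBG-Cre livers. Cholangiocyte markers summed to 72.7 to 129 CPM in the controls and to 361, 576 and 307 CPM in the AAV8-TBG-Cre livers, and stellate cell markers to 239 to 366 CPM and to 467, 972 and 490.1 CPM. The cholangiocyte sum is mostly Spp1, at 295, 457 and 219 CPM in the AAV8-TBG-Cre livers. The stellate cell markers did not move one way: 6 had a positive log2 fold change and 3 a negative one (Lrat -0.25, Reln -0.10 and Acta2 -0.37). The order of Hmox1 in the AAV8-TBG-Cre livers was also that of 6 of 9 cholangiocyte, 4 of 9 stellate cell and 4 of 7 erythroid markers. It was that of 1 of 8 endothelial, 1 of 8 hepatocyte and 0 of 6 neutrophil markers. The share of all genes with this order was not computed, so the marker counts have no background and show no link to Hmox1. The part of these cell types in the Hmox1 difference was not tested.

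**Figure D2:**
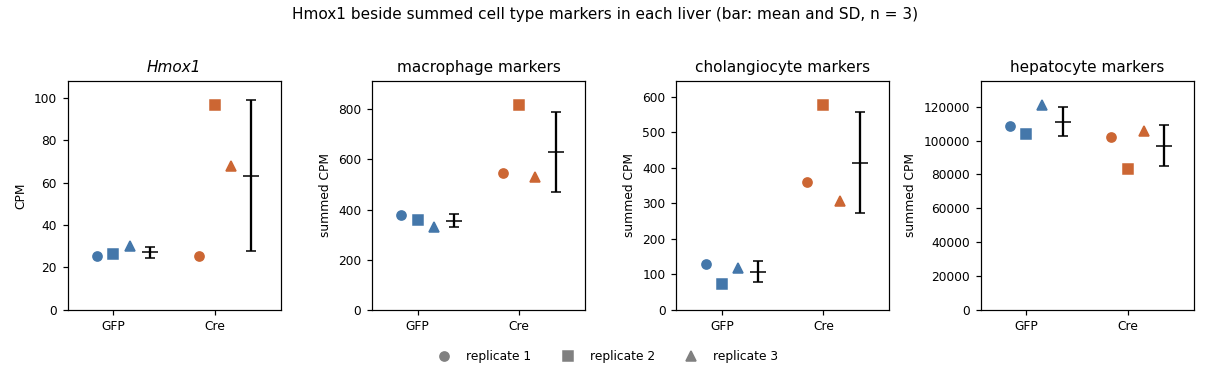
Hmox1 (CPM) beside the summed CPM of macrophage, cholangiocyte and hepatocyte markers in each liver, by vector, with the replicate as the marker shape and the mean and SD (n = 3 mice) as a bar. Macrophage marker sums of all 3 AAV8-TBG-Cre livers (528 to 816 CPM) exceed those of the controls (329 to 380 CPM), whereas Hmox1 does so in AAV8-TBG-Cre replicates 2 and 3.

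Gclc and Gclm encode the catalytic and modifier subunits of glutamate-cysteine ligase, the rate-limiting enzyme of glutathione synthesis. Gclc was measured at 296, 217 and 405 CPM in the controls and 167, 283 and 260 CPM in the AAV8-TBG-Cre livers. The lowest value was that of AAV8-TBG-Cre replicate 1 and the highest that of AAV8-TBG-GFP replicate 3. Gclc had a log2 fold change of -0.37 (95% interval -1.001 to 0.27, adjusted p = 0.493 from edgeR), an interval that reaches far below 0. Gclc was lower with AAV8-TBG-Cre among 2-digit names (log2 ratio -0.61) and among 4-digit names (-0.57). With a term for name length in the edgeR fit Gclc was -0.59 and passed the study's threshold (unadjusted p of 0.00539, adjusted p = 0.0985). It shrank to -0.12 without AAV8-TBG-GFP replicate 3 and to -0.17 without AAV8-TBG-Cre replicate 1, and was -0.56 without AAV8-TBG-GFP replicate 2, none of which passed.

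Gclm was measured at 151, 130 and 177 CPM in the controls and 124, 145 and 140 CPM in the AAV8-TBG-Cre livers, with overlapping groups. Its log2 fold change was -0.17 (95% interval -0.50 to 0.17, adjusted p = 0.558 from edgeR). Gclm was -0.27 without AAV8-TBG-GFP replicate 2, -0.056 without AAV8-TBG-GFP replicate 3 and -0.10 without AAV8-TBG-Cre replicate 1. It stayed negative with upper quartile scaling (-0.10) and was 0.011 with limma on log2(FPKM + 1), a fit that differs in unit, test and filter.

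Gsr encodes glutathione reductase, which restores reduced glutathione with NADPH. Its level was 53.3, 51.4 and 62.3 CPM in the controls and 43.1, 58.4 and 68.9 CPM in the AAV8-TBG-Cre livers, which held both the lowest and the highest value. The log2 fold change was 0.029 (95% interval -0.38 to 0.44, adjusted p = 0.945 from edgeR). In the annotation the span of Gsr overlaps a snoRNA and a pseudogene, that of Gclm a lncRNA and a pseudogene, and that of Txnrd1 a lncRNA and the coding gene Eid3, and how shared fragments were counted is not given in the sources used here.

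Txnrd1, the cytosolic thioredoxin reductase, followed the same order of livers as Gsr within each group. It was measured at 119, 108 and 128 CPM in the controls and 95.01, 122 and 141 CPM in the AAV8-TBG-Cre livers, a log2 fold change of 0.012 (95% interval -0.36 to 0.39, adjusted p = 0.979 from edgeR). Srxn1 encodes sulfiredoxin, which repairs over-oxidised peroxiredoxins. It was measured at 49.05, 43.4 and 71.0 CPM in the controls and 39.8, 73.2 and 79.0 CPM in the AAV8-TBG-Cre livers, where replicates 2 and 3 exceeded every control and replicate 1 lay below them. The log2 fold change of Srxn1 was 0.23 (95% interval -0.42 to 0.89, adjusted p = 0.688 from edgeR). Without AAV8-TBG-Cre replicate 1 it was 0.48 and passed the study's threshold (unadjusted p of 0.0478, adjusted p = 0.177 from edgeR), and with a term for name length it was -0.057.

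Gpx1 reduces hydrogen peroxide with glutathione and was the most abundant of the 10 genes. The gene lies at chr9:108339080-108340342 (GRCm38.p6). It was measured at 1834, 1895 and 2101 CPM in the controls and 1490, 1310 and 1629 CPM in the AAV8-TBG-Cre livers. All 3 AAV8-TBG-Cre livers lay below all 3 controls, as for 13.0% of genes tested (27.0% without overlap in either direction), and Gpx1 was the single member without overlap. The means were 1944 ± 140.0 CPM (SD, n = 3) and 1476 ± 160 CPM (SD, n = 3), which gives a log2 fold change of -0.40 (95% interval -0.79 to -0.0082, adjusted p = 0.231 from edgeR, exact two-sided permutation p = 0.1). The groups were also separate in FPKM, at 1687 to 1826 against 1448 to 1534. Its unadjusted p of 0.0464 lay at the edge of the threshold. Leaving out AAV8-TBG-GFP replicate 1, 2 or 3, or AAV8-TBG-Cre replicate 1 or 2, gave log2 values of -0.44, -0.41, -0.35, -0.41 and -0.32 that no longer passed, and without AAV8-TBG-Cre replicate 3 it was -0.48 and passed. The difference had the same sign among 2-digit (-0.32) and 4-digit names (-0.52). Hepatocyte markers summed to 103893 to 120784 CPM in the controls and 83337 to 105606 CPM in the AAV8-TBG-Cre livers, and their part in the Gpx1 difference was not tested. This sum is mostly Alb, and the 8 markers did not move one way: Cps1 was higher (log2 fold change 0.74), Ttr was lower (-0.57) and the other 6 did not pass.

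Nqo1, a quinone reductase often read as a gauge of NRF2 activity, was the least abundant of the 10. It was measured at 8.59, 5.25 and 7.38 CPM in the controls and 7.25, 10.1 and 3.80 CPM in the AAV8-TBG-Cre livers, from 79 to 247 counts per library. AAV8-TBG-Cre livers held the highest value, in replicate 2, and the lowest, in replicate 3, although both had Hmox1 levels above the controls. The means were 7.08 ± 1.69 CPM (SD, n = 3) and 7.07 ± 3.18 CPM (SD, n = 3), with a log2 fold change of 0.0024 (95% interval -0.81 to 0.82, adjusted p = 0.998 from edgeR). An interval this wide does not show that Nqo1 was alike in both groups.

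**Figure D3:**
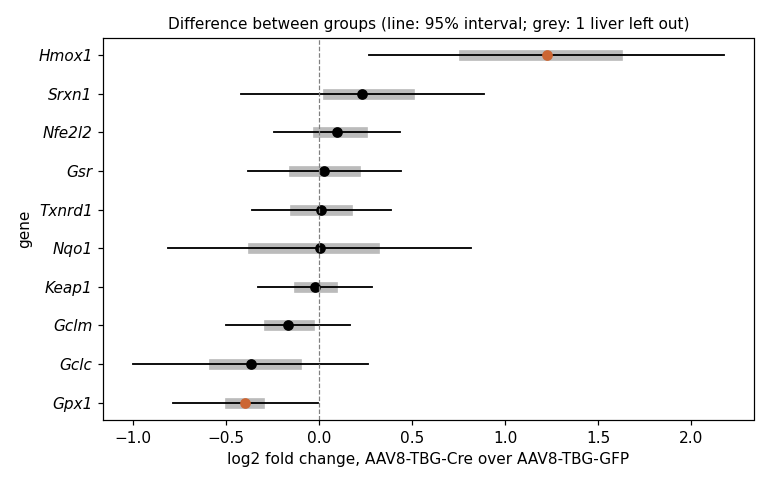
Log2 fold change of each gene, AAV8-TBG-Cre over AAV8-TBG-GFP, from edgeR: points are estimates (orange where they pass the study's threshold), lines are 95% intervals and grey bars span the fits that each left out 1 of the 6 livers. Hmox1 (1.22) and Gpx1 (-0.40) have intervals apart from 0, and the other 8 intervals include it.

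Single livers ordered several of these genes alike. AAV8-TBG-Cre replicate 1 had the lowest CPM of the 6 libraries for 7 of the 10 genes (Nfe2l2, Keap1, Gclc, Gclm, Gsr, Txnrd1 and Srxn1), whereas it was lowest for 14.1% of all genes tested. AAV8-TBG-Cre replicate 3 was highest for Gsr, Txnrd1 and Srxn1, AAV8-TBG-Cre replicate 2 for Nfe2l2, Nqo1 and Hmox1, and AAV8-TBG-GFP replicate 3 for Keap1, Gclc, Gclm and Gpx1. Over all genes tested these libraries were highest for 15.5%, 23.3% and 19.9%, respectively. On the FPKM scale, which lacks the TMM factor, AAV8-TBG-Cre replicate 2 was highest for 8 of the 10 and AAV8-TBG-Cre replicate 1 was lowest for 7. The shares over all genes were not computed in FPKM, so the FPKM counts have no background beside them. The coefficient of variation was larger in AAV8-TBG-Cre livers for 7 of the 10 genes and for 61.5% of all genes tested. For Hmox1 it was 9.34% in the controls and 56.4% in the AAV8-TBG-Cre livers, and for Nfe2l2 it was 5.14% and 17.5%.

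Levels were ordered by FPKM, which divides by transcript length. In the controls Gpx1 stood at 1743 ± 73.3 FPKM (SD, n = 3), followed by Gclc at 82.6 ± 23.5, Gclm at 69.2 ± 9.32, Nfe2l2 at 36.6 ± 1.10, Txnrd1 at 32.4 ± 2.24 and Gsr at 19.3 ± 1.51. Srxn1 at 18.0 ± 4.28, Keap1 at 16.9 ± 1.43, Hmox1 at 15.7 ± 0.990 and Nqo1 at 4.32 ± 1.07 FPKM (SD, n = 3) came last. Neighbours overlapped between Gclc and Gclm and along the run from Gsr through Srxn1 and Keap1 to Hmox1, while Gpx1, Nfe2l2, Txnrd1 and Nqo1 were separate from theirs. In the AAV8-TBG-Cre livers Hmox1 moved from position 9 to position 5, at 42.3 ± 26.9 FPKM (SD, n = 3), with a range of 15.96 to 69.8 that overlapped those of Nfe2l2 and Txnrd1 next to it. Gpx1 stayed at position 1 at 1484 ± 44.9 and Nqo1 at position 10 at 4.98 ± 2.66 FPKM (SD, n = 3).

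Of the 10 genes, 7 were represented by 1 transcript, Nfe2l2 by 2, and Keap1 and Txnrd1 by 4 each. Shares between transcripts are estimates, since most fragments fit more than 1 of them. The coding transcript of Nfe2l2 (NM_010902) took 96.0% to 97.8% of the gene's expected count and the non-coding NR_132727 the remaining 2.24% to 3.97%. Keap1 was assigned mainly to NM_001110307, with 78.5% to 84.5%. NM_001110306 of Keap1 was at 0 in the controls and AAV8-TBG-Cre replicate 1, and took 3.55% and 2.24% in the remaining AAV8-TBG-Cre livers, replicates 2 and 3. The main transcript of Txnrd1, NM_001042513, took 80.8% to 95.7% in the controls and 70.9% to 79.5% in the AAV8-TBG-Cre livers. NM_015762 of Txnrd1 took 15.6%, 19.2% and 2.12% in the controls and 27.3%, 19.3% and 23.0% in the AAV8-TBG-Cre livers. Its share was lower in every control than in every AAV8-TBG-Cre liver, but replicate 2 of both groups differed by less than 1 percentage point, and the share was not tested.

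**Figure D4:**
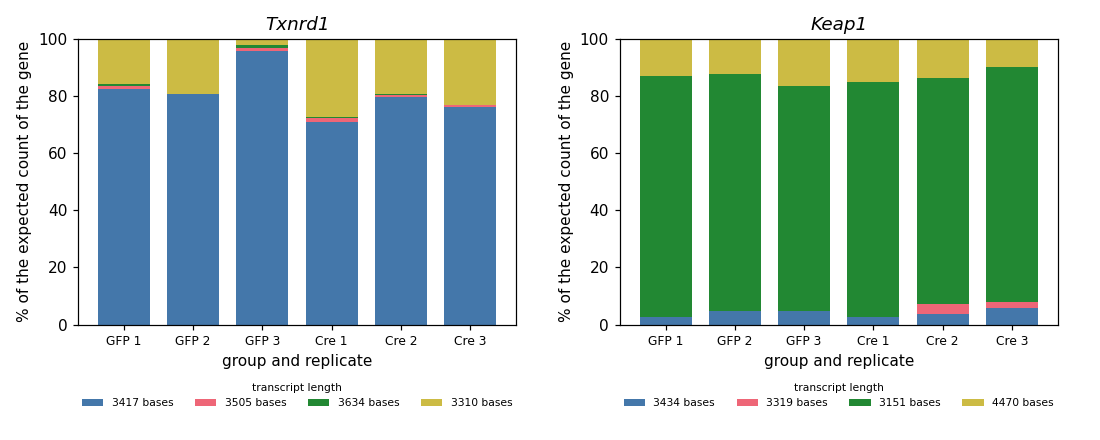
Share of the expected count of Txnrd1 and Keap1 assigned to each of 4 transcripts, which are told apart by their length in bases, in each liver (group and replicate on the x axis, percent on the y axis). The 3310-base transcript of Txnrd1 takes 2.12% in AAV8-TBG-GFP replicate 3 and 15.6% to 27.3% in the other livers.

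The wider pathway was described with 81 other genes in 7 lists, of which 80 had a count and 78 were tested. Of these, 7 were higher and 14 lower with AAV8-TBG-Cre at the study's threshold, 26.9% of the 78 against 20.5% of all genes. Over all genes 12.0% were higher and 8.41% lower. Of the 78, 1 (Me1) passed the adjusted threshold, beside 0.931% of all genes. The median log2 fold change of the 78 was -0.13. The number lower was 7, 7 and 6 without AAV8-TBG-GFP replicate 1, AAV8-TBG-GFP replicate 2 and AAV8-TBG-Cre replicate 3, respectively, and the cause was not tested. Below, higher and lower refer to the unadjusted threshold. Of the 21 genes, 7 (Gpx3, Cth, Aox1, Aldh1a1, Abcc4, G6pdx and Me1) passed it under all 16 alternatives, and the others under 4 to 14 (Slc7a11 under 12 of the 13 in which it had a value). In CPM the groups overlapped for Gsta2 and Txnip and were separate for the other 19, beside 27.0% of all genes tested. These 21 genes were picked by their p in the same libraries, so this separation is no further support. In FPKM the groups also overlapped for Nfe2l1, Txn1, Txnrd2, Abcc3, Taldo1, Idh1, Blvrb and Sod2.

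The enzymes that supply NADPH for glutathione reductase and thioredoxin reductase held the clearest difference. Me1, cytosolic malic enzyme and a known NRF2 target that also supplies lipogenesis, has the window printed above and had 252, 210 and 182 CPM in the controls and 92.8, 95.5 and 91.2 CPM in the AAV8-TBG-Cre livers. All AAV8-TBG-Cre livers lay at about the same level, far below the lowest control. Me1 fell by 1.21 on the log2 scale (standard error 0.14, adjusted p = 0.0330 from edgeR), and its log2 values over the 16 alternatives ran from -1.32 to -1.0007. The adjusted p was 0.0766, 0.0832, 0.102 and 0.119 without AAV8-TBG-Cre replicate 2, AAV8-TBG-Cre replicate 3, AAV8-TBG-GFP replicate 1 and AAV8-TBG-GFP replicate 2 (range over the alternatives 2.47e-11 to 0.141). Its log2 values in these 4 fits were -1.23, -1.19, -1.08 and -1.22, close to that with all livers, and 0 to 4 of all genes passed the adjusted threshold as higher in them and 0 to 13 as lower. Me1 also missed the adjusted threshold in fits with every liver. The adjusted p was 0.0860 in edgeR with the replicate block. In limma it was 0.0701 on log2(FPKM + 1), 0.0704 on log2(FPKM + 0.1) and 0.141 on unfiltered log2(FPKM + 1). G6pdx, which opens the pentose phosphate pathway, differed in the opposite direction, with 4.08 ± 0.338 CPM (SD, n = 3) in the controls and 8.30 ± 2.19 CPM (SD, n = 3) in the AAV8-TBG-Cre livers (log2 fold change 1.03, adjusted p = 0.0684 from edgeR). Idh1 (-0.46) and Taldo1 (-0.37), which make NADPH and recycle pentose phosphates, were lower. Of the 7 genes 1 was called higher and 3 lower, 57.1% against 20.5% of all genes.

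**Figure D5:**
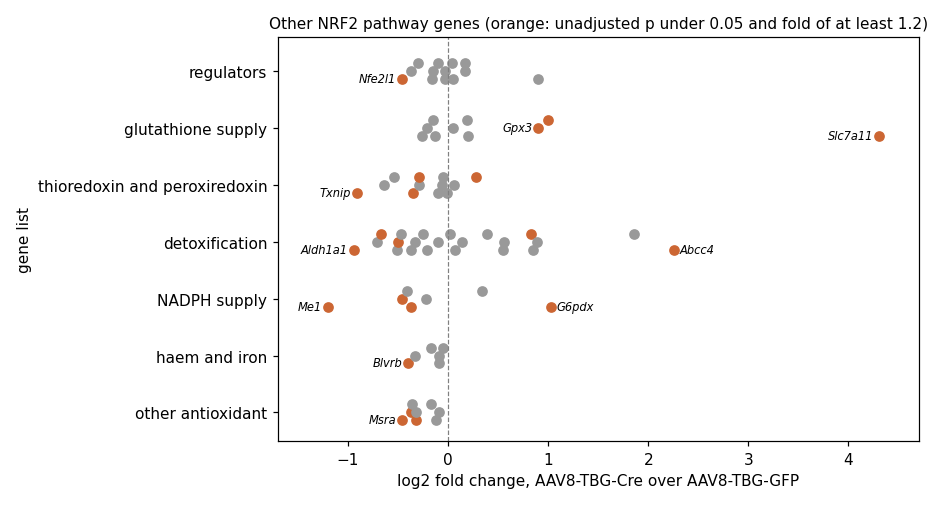
Log2 fold change (AAV8-TBG-Cre over AAV8-TBG-GFP, edgeR) of the 78 other pathway genes tested, by list, with genes past the study's threshold in orange and some of them named. Points lie on both sides of 0 in 5 lists, from Me1 at -1.21 to Slc7a11 at 4.31, and below 0 for all 6 genes of haem and iron and all 8 other antioxidant genes, of which 3 of 6 and 7 of 8 were below 0 in limma on log2(FPKM + 1).

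Among genes of glutathione supply and peroxidases, 3 of 10 tested were called higher and 0 lower by edgeR's unadjusted threshold, and 0 by its adjusted threshold, beside 12.0% higher and 8.41% lower among all genes. Cth, cystathionine gamma-lyase, which makes cysteine from methionine, had 207, 216 and 224 CPM in the controls and 260, 395 and 636 CPM in the AAV8-TBG-Cre livers (log2 fold change 1.00, adjusted p = 0.122 from edgeR). Gpx3, the secreted glutathione peroxidase, had 7.41 ± 0.787 CPM (SD, n = 3) and 13.8 ± 3.04 CPM (SD, n = 3), a log2 difference of 0.90 (adjusted p = 0.0632 from edgeR). Both genes were above every control in all 3 AAV8-TBG-Cre livers, opposite to Gpx1. Slc7a11, the cystine importer and another NRF2 target, had 3, 3 and 2 counts in the controls and 10, 176 and 14 counts in the AAV8-TBG-Cre livers. The ratio of its summed counts per library size was 22.1 (95% exact interval 10.99 to 51.9, counting error only) and 4.20 (1.82 to 10.8) without AAV8-TBG-Cre replicate 2, whose count was the highest by far. The macrophage, cholangiocyte and stellate marker sums were also highest in that liver, and their part in the Slc7a11 difference was not tested.

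In the thioredoxin list Txn1 (log2 fold change -0.29), the mitochondrial reductase Txnrd2 (-0.35) and the thioredoxin inhibitor Txnip (-0.91) were lower and Prdx4, the peroxiredoxin of the endoplasmic reticulum, was higher (0.28), with adjusted p-values between 0.174 and 0.236 in edgeR. The other 8 of the 12 did not pass, so 33.3% of the list was called against 20.5% of all genes. Txnip no longer passed when any liver but AAV8-TBG-GFP replicate 3 was left out. Its log2 value was -0.95 and -0.44 without AAV8-TBG-GFP replicates 1 and 2, and -0.93, -1.07 and -0.76 without AAV8-TBG-Cre replicates 1, 2 and 3. Of the detoxification genes, 2 of 22 were higher and 3 lower, together 22.7% against 20.5% of all genes, which is near the background. Abcc4, a basolateral export pump, had 2.13, 1.99 and 1.36 CPM in the controls and 4.53, 17.3 and 4.38 CPM in the AAV8-TBG-Cre livers (log2 fold change 2.26, adjusted p = 0.0903 from edgeR), all above the controls. Without AAV8-TBG-Cre replicate 2 the log2 value was 1.28. Gsta2 was higher (0.83), but its fragments can be shared with the near-identical Gsta1, so the value is uncertain. Aldh1a1, a retinaldehyde dehydrogenase, had 1747 ± 264 CPM (SD, n = 3) and 910.0 ± 110 CPM (SD, n = 3), a log2 difference of -0.94 (adjusted p = 0.0598 from edgeR). Aox1, aldehyde oxidase, was lower by less (-0.67, adjusted p = 0.0548), and the export pump Abcc3 was lower as well (-0.50, adjusted p = 0.217).

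Among the 13 partners and regulators of NRF2, 0 were higher and 1 was lower by edgeR's unadjusted threshold, 7.69% against 20.5% of all genes. That gene was Nfe2l1, which encodes the related factor NRF1, with 161, 158 and 201 CPM in the controls and 105, 136 and 136 CPM in the AAV8-TBG-Cre livers (log2 fold change -0.46, adjusted p = 0.156 from edgeR). Of 6 genes of haem and iron handling beside Hmox1, Blvrb, which reduces biliverdin, was lower (-0.40), opposite to Hmox1. Of these 6, 16.7% were called against 20.5% of all genes. Of 8 other antioxidant genes, some are also reported NRF2 targets. The superoxide dismutases Sod1 (-0.32) and Sod2 (-0.37) and the methionine sulfoxide reductase Msra (-0.46) were lower (adjusted p = 0.224, 0.206 and 0.123 from edgeR). Sod1 passed the threshold in 4, Sod2 in 8 and Msra in 14 of 16 alternatives. The groups of these 3 did not overlap in CPM, as for 13.0% of all genes in this direction, but those of Sod2 overlapped in FPKM. The other 5 of the 8 did not pass, so 37.5% of the list was called against 20.5% of all genes. The median of the 8 was -0.32, with all 8 values negative in edgeR and 7 of 8 in limma on log2(FPKM + 1).

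The genes most like Nfe2l2 across the 6 libraries, by Pearson correlation of log2 CPM, were Dync1li2 (r = 0.988), Kdm2a (r = 0.987) and Actg1 (r = 0.986). Those most like Nqo1 were Mapkbp1 (r = 0.985), Tspan14 (r = 0.980) and Stx12 (r = 0.966). These are the highest of 13430 genes over 6 libraries that share scaling and depth, and they are given as a description.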

How the data were processed

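Livers of 6 mice were profiled by RNA-seq, 3 per vector, grouped by sample title. The files deposited hold an expected count for each transcript, not normalized by the authors, and FPKM per transcript and gene, rounded to 2 decimals. The submitters' processing notes name HISAT2, Bowtie2, RSEM and mm10, whereas the paper's methods describe STAR, HTSeq and DESeq2, and which tool made the counts is not given in the sources used here. Expected counts were summed by NCBI gene ID and rounded (0.000208% had no gene). The libraries of a group differed by more than sampling noise (chi-square per gene of at least 26.5). The main test was edgeR 4.0.16 (R 4.3.3) with TMM, filterByExpr, the quasi-likelihood test and the vector as the only factor, and adjusted p-values are Benjamini-Hochberg over all genes tested. Standard errors and 95% intervals were derived from the quasi-F statistic. Genes were called at an unadjusted p under 0.05 with a 1.2-fold difference or more, and also at an adjusted p under 0.05. Steps were tested on simulated data.

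Named were all members, Mettl14, every pathway list gene past the threshold, the most abundant marker of each list and the 3 genes most like Nfe2l2 and Nqo1. Members and lists were chosen with earlier results of these data known. Alternatives were DESeq2 1.42.0, limma 3.58.1 on log2(FPKM + 1) (genes at 0.5 FPKM or more in at least 3 libraries, or unfiltered) and log2(FPKM + 0.1), RLE and upper quartile scaling, other count filters, a replicate block, the form of the library name, a 1.5-fold threshold and leaving out each liver. The main test used every sample.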

Additional observations from a re-analysis of the deposited data

How the results depend on the processing

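With 3 livers per group, the calls for single genes were fragile and depended on the scaling. Hmox1 kept its direction under all 16 alternatives (0.73 to 1.60) and passed the study's threshold in 12, and Gpx1 kept its direction in all 16 (-0.48 to -0.23) and passed in 6. Of the 10 genes, 1 was called higher and 1 lower. The number higher was 0 with the form of the library name in the fit and with limma on unfiltered log2(FPKM + 1), and 0 to 2 when each liver was left out. The number lower was 0 without a filter on low counts, with limma on log2(FPKM + 1), log2(FPKM + 0.1) or unfiltered values, and at a fold of 1.5, 2 with the form of the library name, and 0 to 1 when each liver was left out. The number past the adjusted threshold was 0, 2 with DESeq2 (Hmox1, adjusted p = 0.0336, and Gpx1, adjusted p = 0.0396) and 0 to 1 when each liver was left out. For the other pathway genes, 7 higher became 11 without a filter, and 14 lower became 7 with upper quartile scaling, 3 with limma on log2(FPKM + 1) and on log2(FPKM + 0.1), 4 on unfiltered log2(FPKM + 1), 4 at a fold of 1.5 and 6 to 18 when each liver was left out. Over all genes the share of higher genes among those called was 58.9%, 72.3% with upper quartile scaling and 83.7%, 84.1% and 84.7% in the 3 FPKM fits, where the median of all genes moved to 0.11, 0.14 and 0.066. Genes called at the adjusted threshold over all genes were 65 higher and 60 lower in edgeR and 748 and 409 in DESeq2.

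Signs turned only for genes that did not pass. With the form of the library name in the fit the log2 fold change was -0.0089 for Nfe2l2, -0.0033 for Nqo1, -0.12 for Gsr, -0.11 for Txnrd1 and -0.057 for Srxn1. In the FPKM fits it was 0.14, 0.15 and 0.14 for Keap1 and 0.011 in each for Gclm, and with upper quartile scaling it was 0.041 for Keap1. Nqo1 was -0.0051 in DESeq2 and -0.010 without a filter. Leaving out each liver gave ranges of -0.0044 to 0.23 for Nfe2l2, -0.11 to 0.072 for Keap1, -0.36 to 0.30 for Nqo1, -0.14 to 0.19 for Gsr and -0.13 to 0.15 for Txnrd1, and, with no change of sign, -0.56 to -0.12 for Gclc and -0.27 to -0.056 for Gclm. The cause of these changes was not tested.

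Deviations from the group mean correlated at 0.0092, -0.26 and 0.21 between libraries with the same replicate number 1, 2 and 3. Between libraries with different numbers the correlations ran from -0.28 to 0.31, and not every library correlated best with its own number. With 3 libraries per group these values cannot show whether the numbers pair the mice. With the replicate block, 1 of the 10 genes was called higher and 0 lower, Nqo1 was -0.072 and Txnrd1 -0.0029, and over all genes 1 higher and 6 lower passed the adjusted threshold.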
